A study of Homo sapiens with 63 samples.

Results

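Fractions 3 to 7 of a polysome gradient were compared between amino acid starved and serum starved HEK293 cells, an established human embryonic kidney line. The comparison used 10 of the 63 samples of the series, 5 consecutive fractions from each starved gradient. They were taken by fraction number and medium. Log phase fractions 3 to 7 and the higher-numbered fractions of both starved gradients are given beside them where named. The series also holds 3 lysates, which were not analysed here.

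Serum starved cells had been kept for 2 h without serum and with amino acids. Amino acid starved cells had spent 1 h in Earle's salts supplemented with vitamins and serum, without amino acids. The 2 groups therefore differed at least in serum, in amino acids and in the length of the treatment, and the Earle's salts medium is named for the amino acid starved cells alone. These cannot be told apart in this contrast. Both lysates contained cycloheximide, which holds ribosomes on mRNA, and poly(A)-selected RNA was sequenced with a stranded kit, per the labels' protocols. With a single gradient (1) for each medium, the differences below could not be checked against replicates, and no test was run. Which end of the numbering was heavier is not given, so fractions are called lower- or higher-numbered. Of 9 genes long known from HEK293 cells, 7 were among the rows analysed, with mean signals from 0.819 to 175 over the 10 fractions. Of 6 blood, vessel and liver genes that the line should lack, only HBA1 was, at 0.851.

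A gradient separates mRNAs by the mass bound to them, so that mRNAs with few or no ribosomes part from those carrying many. Loss of amino acids is sensed through mTORC1 and through the kinase GCN2. mTORC1 controls translation of TOP mRNAs, which encode ribosomal proteins and elongation factors and start with a cytosine followed by a run of pyrimidines. GCN2 phosphorylates eIF2, which raises translation of ATF4, a transcription factor for amino acid and stress genes. Serum carries growth factors, BMP-like ligands and lipids that act through ERK, SMAD and YAP, with immediate early, ID and CCN genes among the known targets.

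TOP mRNAs made up most of the signal in these fractions, so the first 20 transcribed bases of 7 of them are shown, with the leading pyrimidine run in capitals. They were read from RefSeq promoter windows on GRCh38.p14, as DNA of the transcribed strand. The first 4 encode ribosomal proteins, EEF1A1 and EEF2 are elongation factors, and TPT1 is a translationally controlled tumour protein.
RPS19 (chr19:41860255-41860274, plus strand): CCCTTTCCCCTggctggcag
RPSA (chr3:39406720-39406739, plus strand): CTTTTCCgtgctacctgcag
RPS18 (chr6:33272075-33272094, plus strand): CTCTCTTCCacaggaggcct
RPL12 (chr9:127451387-127451406, minus strand): CCTCTCggctttcggctcgg
EEF1A1 (chr6:73521013-73521032, minus strand): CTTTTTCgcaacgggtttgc
EEF2 (chr19:3985444-3985463, minus strand): CTCTTCCgccgtcgtcgccg
TPT1 (chr13:45341164-45341183, minus strand): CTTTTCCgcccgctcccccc
A start with C and at least 4 further pyrimidines was found in 28 of 39 large-subunit, 19 of 25 small-subunit and 14 of 16 other TOP genes with a RefSeq window. It was found in 410 of the 3722 tested genes with a window (11.0%) and in 4.07% of all windows.

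Values are signal rescaled so that the genes of each fraction sum to 1000000, after spike-in RNAs had been removed. They are shares within a fraction and not amounts of RNA per cell. mRNAs of the cytosolic ribosome held 82.8% of the signal in fraction 3 without amino acids and 64.1% in fraction 7. Without serum the shares were 85.4% in fraction 3 and 57.2% in fraction 7. Both gradients ran the same way, with the lower share in the higher-numbered fraction. The other TOP mRNAs ran the opposite way, from 2.35% to 13.3% without amino acids and from 2.32% to 15.3% without serum. Log phase fractions held less ribosomal protein mRNA throughout, from 78.6% in fraction 3 to 45.0% in fraction 7.

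**Figure D1:**
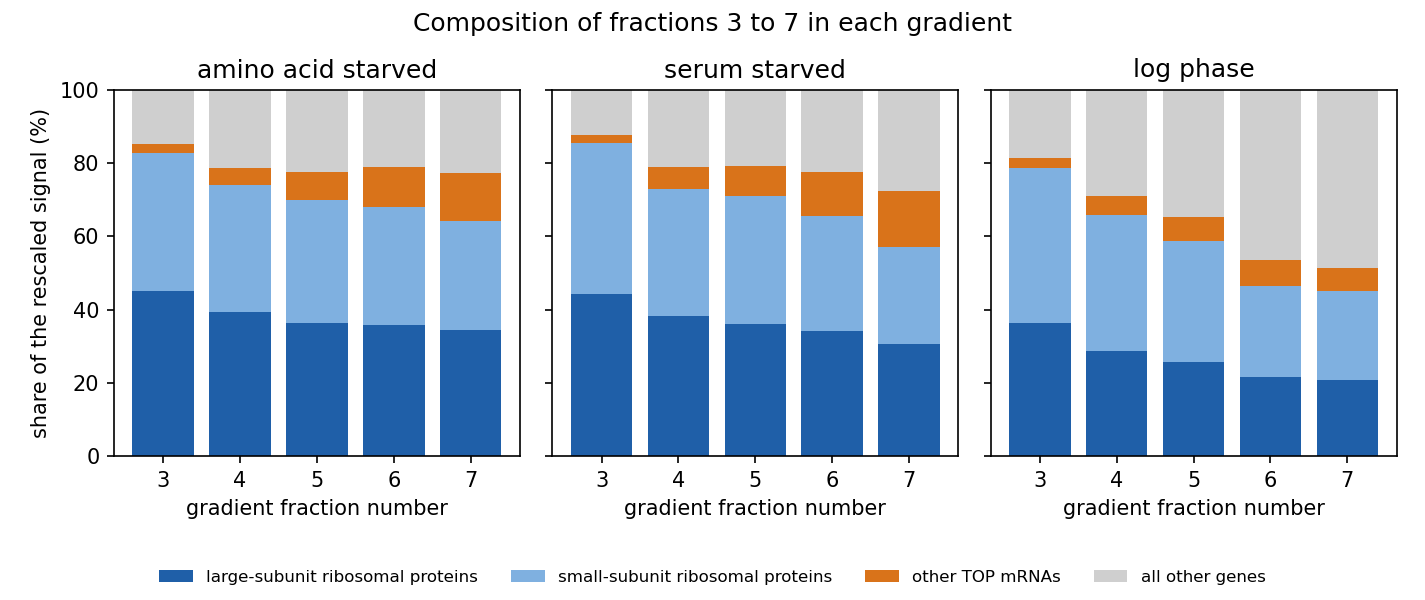
Stacked bars give the share of the rescaled signal (%) held by large-subunit and small-subunit ribosomal protein mRNAs, other TOP mRNAs and all other genes in fractions 3 to 7 of the amino acid starved, serum starved and log phase gradients, 1 library per bar. Ribosomal protein mRNAs held between 57.2% and 85.4% in the starved fractions, and all other genes held 14.8% against 12.3% in fraction 3 and 22.6% against 27.5% in fraction 7 of the amino acid and serum starved gradients.

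The single most abundant mRNA was RPS29, a small-subunit protein, in most of these fractions. It held 6.14% of fraction 3 without amino acids and 8.90% without serum. The span of RPS29 overlaps the gene RN7SL1, and whether reads of RN7SL1 enter these values was not tested. In fraction 7 the lead passed to EEF1A1, the elongation factor that brings aminoacyl-tRNA to the ribosome, at 6.87% without amino acids and 8.03% without serum. EEF1A1 had held 223 and 202 units of signal in fraction 3, far under its level in fraction 7 of either gradient.

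Position in the gradient separated the fractions far more than the medium did. Across the 4414 tested genes, each amino acid starved fraction was most like the serum starved fraction of the same number, with Spearman correlations of 0.928, 0.969, 0.966, 0.963 and 0.947 from fraction 3 to 7. Within the amino acid starved gradient, fractions 3 and 7 correlated at 0.427, and within the serum starved gradient at 0.389. These are correlations across genes, which share the library and its composition. From fractions 3 and 4 to fractions 6 and 7, 2785 genes were at least 2-fold higher in both gradients and 211 at least 2-fold lower in both. None was 2-fold higher in one gradient and 2-fold lower in the other. EEF2, the elongation factor that moves the ribosome along, was among the steepest. Its signal was 20.4, 27.2, 311, 1935 and 3818 in fractions 3 to 7 without amino acids. Without serum it was 23.6, 32.8, 242, 2258 and 5835. Poly(A)-binding protein PABPC1 differed between the same ends by 6.55 on the log2 scale without amino acids and by 7.19 without serum.

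The question of the comparison was which mRNAs differed between the starvations within these fractions. The difference of a gene is its mean log2(signal + 1) over the 5 amino acid starved fractions minus that over the 5 serum starved ones. The error given is the SD of the 5 differences between fractions of the same number. Adding 1 shrinks the differences of weak genes. Genes needed a mean signal of 5 over the 10 fractions, which kept 4414 of 11074 and left 6660 below it. The differences centred on 0.03 with an SD of 0.24 across genes. 4327 of the 4414 genes (98.0%) lay within 1.5-fold and 4400 (99.7%) within 2-fold.

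Genes had been asked to differ by 2-fold with no overlap between the values of the gradients. ID3 and C19orf73 met this on the higher side without amino acids, 2 of 4414 genes (0.0453%), and BEST1 on the lower side, 1 of 4414 (0.0227%). This rule is hard to meet, since the median gene varied along the 5 fractions with an SD of 1.02 without amino acids and 1.19 without serum. The median SD of the matched differences was 0.34. A matched rule was therefore added after the values were seen, asking for the same sign in all 5 pairs of equal fraction number. At 2-fold it took 9 genes on the higher side (0.204%) and 3 on the lower (0.0680%). At 1.5-fold it took 54 higher (1.22%) and 13 lower (0.295%). The 54 and 13 genes include the 9 and 3. The filter took the mean over both gradients, so a gene could pass through its high side alone. Of the 54, 18 had a mean under 5 without serum, and of the 13, 4 had one under 5 without amino acids. Among them were ID1, CHAC1, CYR61, CEBPB and C19orf73, which are 5 of the 9, and BEST1, C10orf10 and CCDC122, which are all 3. Such genes had to differ to be tested, so their counts are a description and no support. Over all 4414 genes, 85 were under 5 without serum alone and 162 without amino acids alone.

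**Figure D2:**
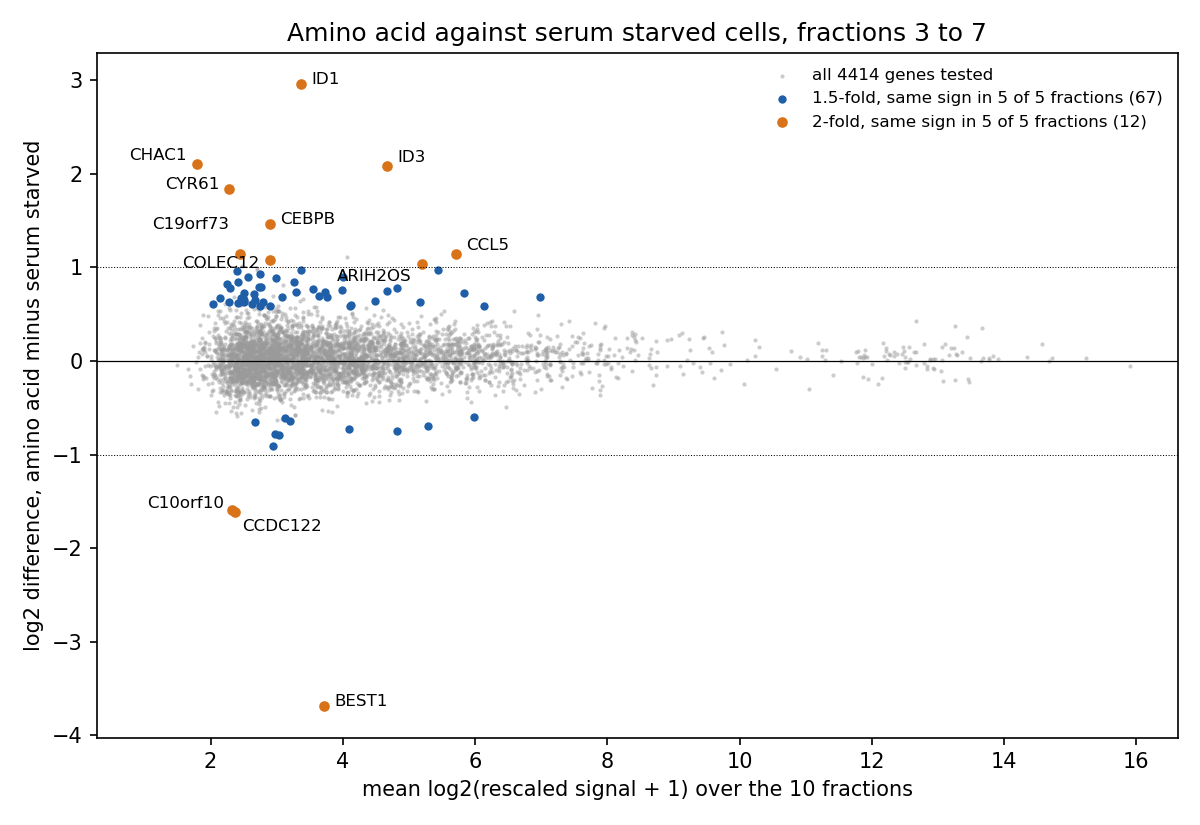
Each point is 1 of the 4414 tested genes, with its mean log2(rescaled signal + 1) over the 10 fractions on the horizontal axis and the log2 difference, amino acid minus serum starved, on the vertical axis. Dotted lines mark 2-fold; blue and orange points met the matched rule at 1.5-fold (67 genes, the orange ones included) and at 2-fold (12 genes, labelled), and ID1 and BEST1 lie farthest from 0.

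The highest differences belonged to ID1, CHAC1, ID3 and CYR61, each 1.8 or more on the log2 scale. ID1 (chr20:31605289-31606510) and ID3 (chr1:23557926-23559501) encode inhibitors of basic helix-loop-helix factors and are textbook targets of BMP and SMAD signalling. ID1 signal was 4.36, 32.6, 41.0, 43.4 and 56.9 in fractions 3 to 7 without amino acids. Without serum it was 0.442, 2.39, 2.45, 4.37 and 6.54. The gradients met only at their ends, where the lowest amino acid starved value lay below the highest serum starved one. Every matched pair was higher without amino acids, by 2.96 ± 0.65 (SD, 5 fractions) on the log2 scale, which is 7.78-fold.

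ID3 values were separate between the gradients. They were 17.6, 79.5, 68.8, 58.7 and 63.5 without amino acids, and 5.81, 17.0, 13.3, 10.2 and 14.1 without serum. The difference was 2.08 ± 0.38, or 4.24-fold. CYR61, now CCN1 (chr1:85580761-85583950), encodes a secreted matrix protein that is a known YAP target. Its signal was 2.37, 3.16, 5.66, 20.1 and 32.7 without amino acids. Without serum it was 0.258, 0.492, 0.322, 4.06 and 8.09, lower in every pair, and the difference was 1.84 ± 0.39.

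Of the 16 genes on the list of ID, SMAD and YAP targets in the table, 7 were tested, and ID1, ID3 and CYR61 met both matched rules on the higher side, beside 0.204% of all genes at 2-fold and 1.22% at 1.5-fold. Of these, ID1 and CYR61 passed the filter through their high side. No member met the rules on the lower side. The list's median was 0.74, beside 0.03 over all genes tested. ID2 differed by 0.44, ID4 by 0.42 and HES1 by 0.74, none of them past the matched rule. TGIF1, a repressor of SMAD targets, differed by -0.02 ± 0.66. CTGF, now CCN2 and a neighbour of CYR61 in function, was below the filter. It read 0.264, 0.758, 1.07, 3.66 and 6.89 without amino acids and 0.258, 0, 0.268, 0.717 and 2.16 without serum.

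Log phase cells, which had both serum and amino acids, held more ID1 than either starved gradient, at 9.76, 65.3, 91.5, 153 and 161 in fractions 3 to 7. ID1 lay 1.28 below log phase without amino acids and 4.24 below it without serum, as mean log2 differences of -1.28 and -4.24. The values for ID3 were -1.34 and -3.42, and for CYR61 -0.74 and -2.58. Both differences from log phase use the same log phase fractions, so they are not independent of each other. The median signal of all genes was 1.76 in fraction 3 and 16.5 in fraction 7 of log phase. It was 1.00 and 5.72 without amino acids and 0.775 and 7.36 without serum, and lower than log phase in every fraction. A value under log phase was thus not particular to these genes.

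CHAC1 (chr15:40953471-40956512) encodes a glutathione-degrading enzyme that is a well-known target of ATF4. Its signal was 0.791, 1.85, 10.0, 16.8 and 18.5 without amino acids, a mean of 9.59. Without serum it was 0.129, 0, 0.752, 1.2 and 2.02, and log phase fractions read 0, 0, 1.52, 4.00 and 1.29. The difference was 2.11 ± 0.99, smallest in fraction 3 at 0.67 and largest at 3.02. The mean without serum was 0.820, so CHAC1 passed the filter through its high side. CHAC1 lay 1.88 above log phase without amino acids and at -0.23 without serum. ID1 was under log phase in both, as was the median signal of all genes.

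CEBPB (chr20:50190583-50192690), a leucine zipper factor of the stress and inflammatory response, had 3.43, 6.26, 14.0, 20.0 and 27.5 without amino acids. Without serum it had 0.517, 2.09, 4.08, 5.61 and 10.2, and every pair was higher without amino acids. The difference of 1.47 ± 0.18 had one of the smallest errors among these genes. Its partner CEBPG (chr19:33373709-33382686) had 4.78, 30, 52.1, 48.3 and 81.2 against 2.27, 17.4, 26.8, 31.8 and 52.1. This was a difference of 0.74 ± 0.14, past 1.5-fold but not 2-fold. CEBPB differed from log phase by 0.16 without amino acids and by -1.31 without serum. The median signal of all genes was below log phase in both.

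**Figure D3:**
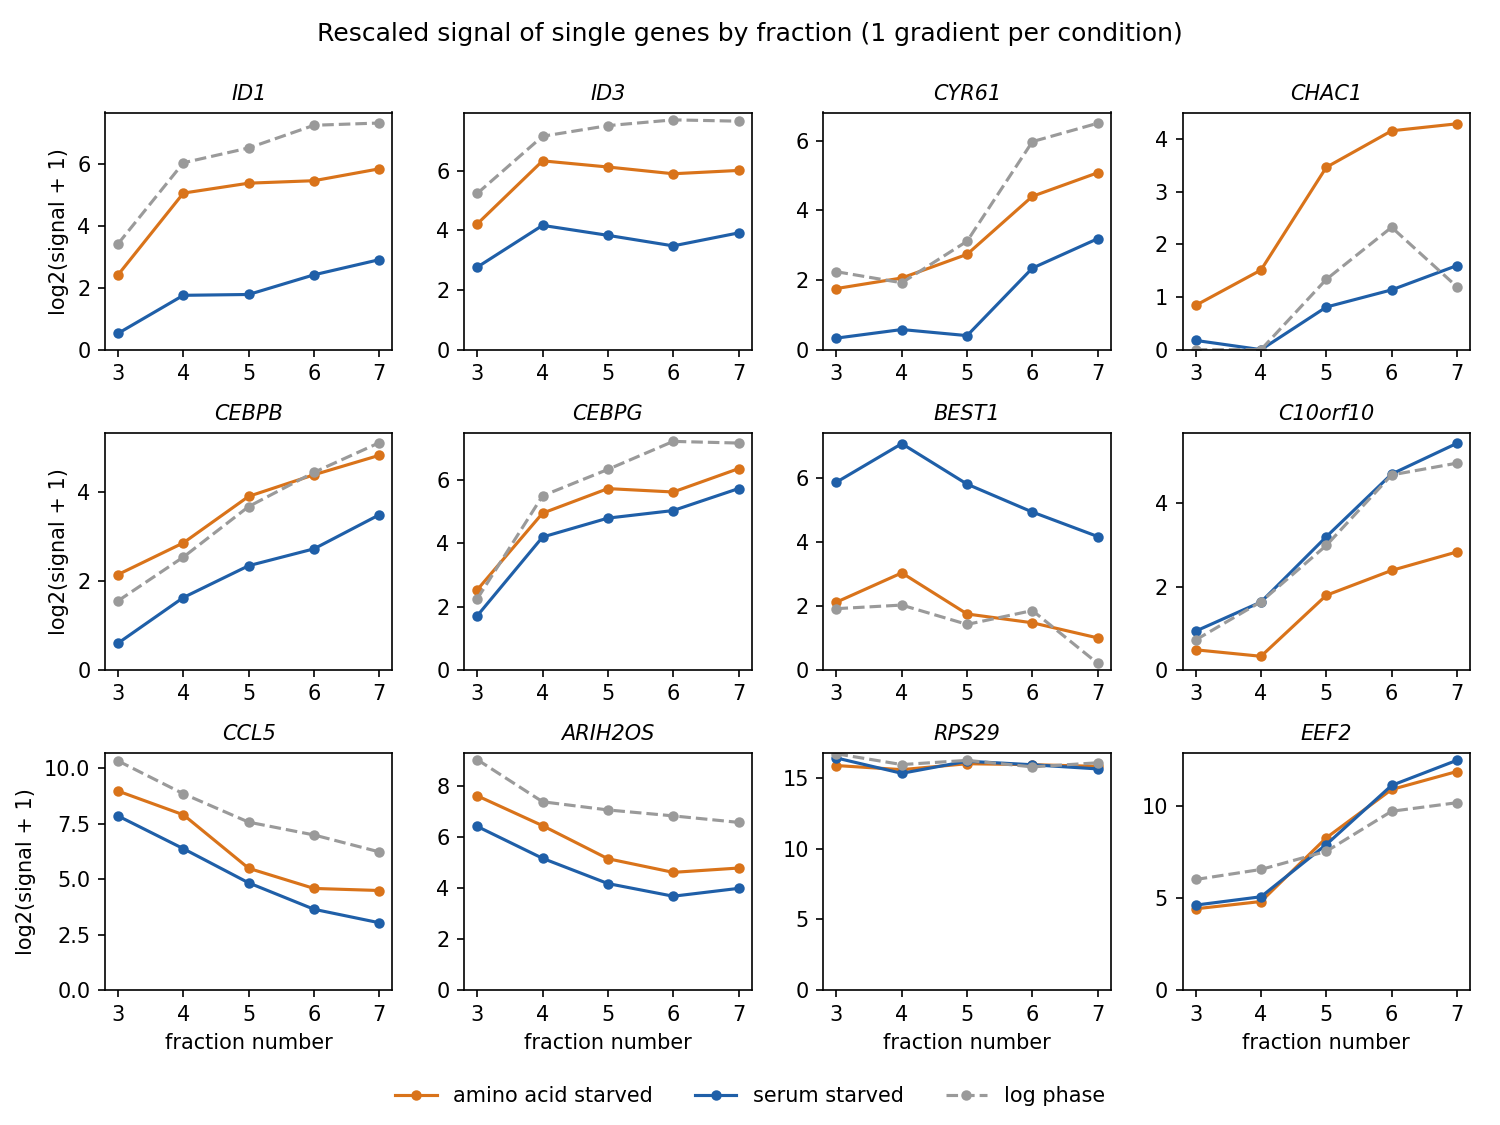
Each panel plots log2(rescaled signal + 1) of 1 gene against fraction number 3 to 7 in the amino acid starved (orange), serum starved (blue) and log phase (grey, dashed) gradients, 1 library per point and no error bars. ID1, ID3, CYR61, CHAC1, CEBPB and CEBPG lie higher in every amino acid starved fraction than in the serum starved one, BEST1 and C10orf10 lower, and RPS29 and EEF2 cross.

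The ATF4 target list had 29 tested members of 37 in the table, with a median of 0.28 beside 0.03 over all genes. 27 of the 29 lay above 0, beside 2495 of all 4414. CHAC1, CEBPB, CEBPG, STC2 and ATF3 met the matched 1.5-fold rule on the higher side, beside 1.22% of all genes, and none met it on the lower, beside 0.295%. CHAC1 and CEBPB passed the filter through their high side. STC2, a secreted glycoprotein, differed by 0.79 ± 0.64 and ATF3, a stress-induced repressor, by 0.71 ± 0.47. DDIT4, an inhibitor of mTORC1, differed by 0.99 ± 0.65 and was higher in 4 of 5 pairs, so it missed the rule. The enzymes and carriers of amino acid supply were nearer to 0. Asparagine synthetase ASNS differed by 0.25 ± 0.44, PSAT1 and PHGDH of serine synthesis by 0.35 and 0.24, and the transporter chains SLC3A2 and SLC7A5 by 0.49 and 0.40. The pseudokinase TRIB3 was below the filter.

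ATF4 itself was abundant and differed more along the gradient than between the media. It read 27.1, 403, 1318, 1837 and 2831 without amino acids and 13.0, 402, 1045, 1713 and 2904 without serum, a difference of 0.28 ± 0.43. On the list of mRNAs regulated by upstream open reading frames, which holds ATF4, 12 genes were tested with a median of 0.19. PPP1R15A, the phosphatase subunit that reverses eIF2 phosphorylation, was the only member past the matched 1.5-fold rule, beside 1.22% of all genes, and differed by 0.65 ± 0.47. DDIT3, the stress factor CHOP, differed by 0.39 ± 0.45 and was higher in 5 of 5 pairs. SLC35A4 differed by -0.05 ± 0.52.

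Promoter windows were searched for the amino acid response motif TGATGNAA on either strand, and 3 of the genes above are shown with 40 bases around the match, the motif in capitals. The bases are the plus strand of GRCh38.p14 from RefSeq windows of 250 bases before to 50 after the start used there, and the CHAC1 match reads on the opposite strand.
CHAC1 (chr15:40953246-40953285, 209 bases before the start): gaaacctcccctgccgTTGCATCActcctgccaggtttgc
CEBPG (chr19:33374055-33374094, 42 bases before the start): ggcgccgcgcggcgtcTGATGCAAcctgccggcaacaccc
ATF3 (chr1:212565200-212565239, 191 bases before the start): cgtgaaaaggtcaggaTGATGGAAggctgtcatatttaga
The motif lay in 4 of the 41 genes with a window among the 54 on the higher side, GPX8 being the other, and in none of 11 on the lower side. It lay in 9 of 21 ATF4 targets, in 83 of 3722 tested genes (2.23%) and in 3.62% of all windows. A match describes these letters and not a bound site.

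Immediate early genes, which respond to growth factors within minutes, were mostly weak in these fractions. Among 31 with values, 14 were tested, with a median of 0.32 beside 0.03 over all genes. IER2, ATF3, MCL1 and PPP1R15A met the matched 1.5-fold rule on the higher side, beside 1.22% of all genes. ATF3 is also on the ATF4 target list and PPP1R15A on that of upstream open reading frames, so these lists are not independent. IER2 read 5.54, 4.42, 17.6, 34.4 and 62.7 without amino acids and 1.16, 2.28, 7.64, 28.9 and 61.2 without serum. The pairs drew together toward fraction 7, and the difference was 0.74 ± 0.64. PPP1R15A did the same, with 31.7 against 31.3 in fraction 7. JUN differed by 0.02. MYC, the growth-driving transcription factor, differed by -0.44 and read 252 without amino acids and 568 without serum in fraction 7. EGR1 and FOS were below the filter, with at most 8.63 units in any of the 10 fractions.

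The remaining genes past the matched 1.5-fold rule on the higher side included other regulators. NFKBIA, the inhibitor of NF-kappaB, read 0.659, 1.39, 9.67, 16.9 and 28.4 without amino acids and 0.258, 0.738, 2.58, 6.57 and 12.1 without serum. It differed by 0.97 ± 0.52. GADD45A, a growth arrest gene, differed by 0.85 ± 0.33 and XBP1, the factor of the unfolded protein response, by 0.69 ± 0.39. ADM and TIMP3, a peptide hormone and a metalloprotease inhibitor, differed by 0.78 and 0.93. The means of NFKBIA, ADM and TIMP3 without serum were 4.46, 4.43 and 4.47, below the filter. These genes passed it through their high side, so their place here is a description. NFKBIA, ADM and TIMP3 were chosen after their values were seen, as were C19orf73, C10orf10, CCDC122, ELOA, SRCAP, DGCR8, GPX8 and, ZNF605 apart, the genes described next that peaked in fraction 3. The same holds for EEF2, RPS19 and RPSA and for members singled out within their lists: CEBPB, CEBPG, STC2, ATF3, DDIT4, TRIB3, SLC3A2, SLC7A5, PSAT1, PHGDH, HES1, ID4 and MCL1.

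A further set of genes on the higher side was most abundant at the lowest-numbered end. Of the 54, 11 peaked in fraction 3 in both gradients, beside 286 of all 4414 tested genes. They were CCL5, COLEC12, ARIH2OS, RAB3B, C5orf63, NAIF1, ATAD3C, SEMA3E, AARD, FBXO48 and ZNF605. AARD and ZNF605 had means of 3.49 and 3.60 without serum and passed the filter of 5 through their high side, so the count is a description. CCL5 (chr17:35871491-35880360), a chemokine, read 501, 238, 43.9, 22.9 and 21.4 without amino acids. Without serum it read 229, 81.8, 27.5, 11.5 and 7.18, lower in every pair, with a difference of 1.14 ± 0.36. RAB3B, a GTPase of secretory vesicles, showed 355, 188, 38.9, 17.7 and 15.4 against 172, 65.2, 20.1, 11.5 and 8.48, a difference of 0.97 ± 0.35. COLEC12, a scavenger receptor, differed by 1.08 ± 0.27, and ARIH2OS, which overlaps ARIH2, by 1.04 ± 0.20. The semaphorin SEMA3E was the strongest of the 11 and read 906 without amino acids and 708 without serum in fraction 3. Log phase fraction 3 held more CCL5, RAB3B, COLEC12, ARIH2OS and SEMA3E than either starved one, for example 1286 units of CCL5 and 2672 of SEMA3E. The median signal of all genes was also higher there, at 1.76 against 1.00 without amino acids and 0.775 without serum.

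C19orf73 overlaps LIN7B on chromosome 19 and met the no-overlap rule. It read 4.42, 8.72, 8.55, 7.77 and 6.83 without amino acids and 0.904, 2.95, 3.54, 4.06 and 2.83 without serum. The difference was 1.14 ± 0.27. The sources used here do not state whether quantification used the strand, so C19orf73 and ARIH2OS are uncertain where their neighbours' reads could be assigned to them.

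BEST1 was the lowest gene of the comparison. It encodes a chloride channel of the retinal pigment epithelium, and its end overlaps that of the ferritin heavy chain gene FTH1 on chromosome 11 (61949821 to 61965515 for BEST1, 61964285 to 61967634 for FTH1). BEST1 signal was 57.1, 133, 54.7, 29.4 and 16.9 in fractions 3 to 7 without serum. Without amino acids it was 3.33, 7.15, 2.35, 1.77 and 0.996, and in log phase 2.76, 3.06, 1.67, 2.61 and 0.150. The serum starved gradient alone was high, and its values did not overlap those of the other gradients. The difference was -3.69 ± 0.38, or 12.9-fold lower without amino acids.

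FTH1 held far more signal and peaked in the same fraction. It read 4629, 15725, 7822, 3712 and 2537 without serum and 8436, 18560, 10721, 4741 and 3016 without amino acids. FTH1 thus differed by 0.43 ± 0.26, in the opposite direction to BEST1. Reads of the overlapping stretch cannot be told apart here, and BEST1 is reported as uncertain.

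C10orf10, now DEPP1 (chr10:44976128-44978809), encodes a FOXO-regulated autophagy protein and overlaps RASSF4, so its values are uncertain in the same way as those of C19orf73 and ARIH2OS. C10orf10 read 0.904, 2.09, 8.16, 25 and 42.3 without serum and 0.395, 0.253, 2.46, 4.23 and 6.11 without amino acids. The difference was -1.62 ± 0.86, from -0.45 to -2.61 by fraction. Its mean log2 difference from log phase was 0.18 without serum and -1.43 without amino acids. The median signal of all genes was below log phase in every fraction of both starved gradients, so neither value is a difference from a typical gene. CCDC122, a coiled-coil gene, read 54.9, 11.1, 3.75, 3.25 and 2.68 without serum and 4.22, 2.32, 1.31, 1.24 and 1.23 without amino acids. Its difference was -1.59 ± 1.11 and was largest in fraction 3.

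The other 10 genes on the lower side lay between -0.91 and -0.59. HIST2H2AA3, a histone H2A gene whose near-identical copy could share its reads, differed by -0.91 ± 0.44. Its mean without amino acids was 4.95, so it passed the filter of 5 through its high side. Replication-dependent histone mRNAs mostly lack a poly(A) tail, and 5 of the 15 in the table were tested, with a median of -0.24. BIRC5, the mitotic survival protein survivin, read 14.8, 39.2, 65.6, 81.4 and 103 without amino acids and 20.7, 46.3, 100, 143 and 189 without serum, a difference of -0.59 ± 0.26. The other 18 tested mitotic genes did not meet the rule. ELOA, SRCAP and DGCR8, an elongin, a chromatin remodeller and a microRNA processing factor, differed by -0.79, -0.78 and -0.61.

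Most gene lists stayed near all genes. Of 36 lists with 5 or more tested genes, 25 had a median within 0.1 of 0 and 32 within 0.2, and 27 had no member past the matched 1.5-fold rule. The large-subunit ribosomal proteins had a median of 0.06 over 47 genes and the small-subunit ones 0.04 over 32. Among them RPL12, of the ribosomal stalk base, was the highest at 0.37 ± 0.10, with 24429 against 16774 units in fraction 3. RPL13A was the lowest large-subunit gene at -0.22. The other TOP mRNAs had a median of -0.01 over 24 genes, from IMPDH2 at 0.31 to EIF3L at -0.29, and EEF1A1 differed by -0.19 ± 0.22. None of these 103 genes met the matched rule at 1.5-fold, beside 1.22% higher and 0.295% lower over all genes. Mitochondrial ribosomal proteins had a median of 0.07 over 76 genes and translation initiation factors 0.02 over 38.

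**Figure D4:**
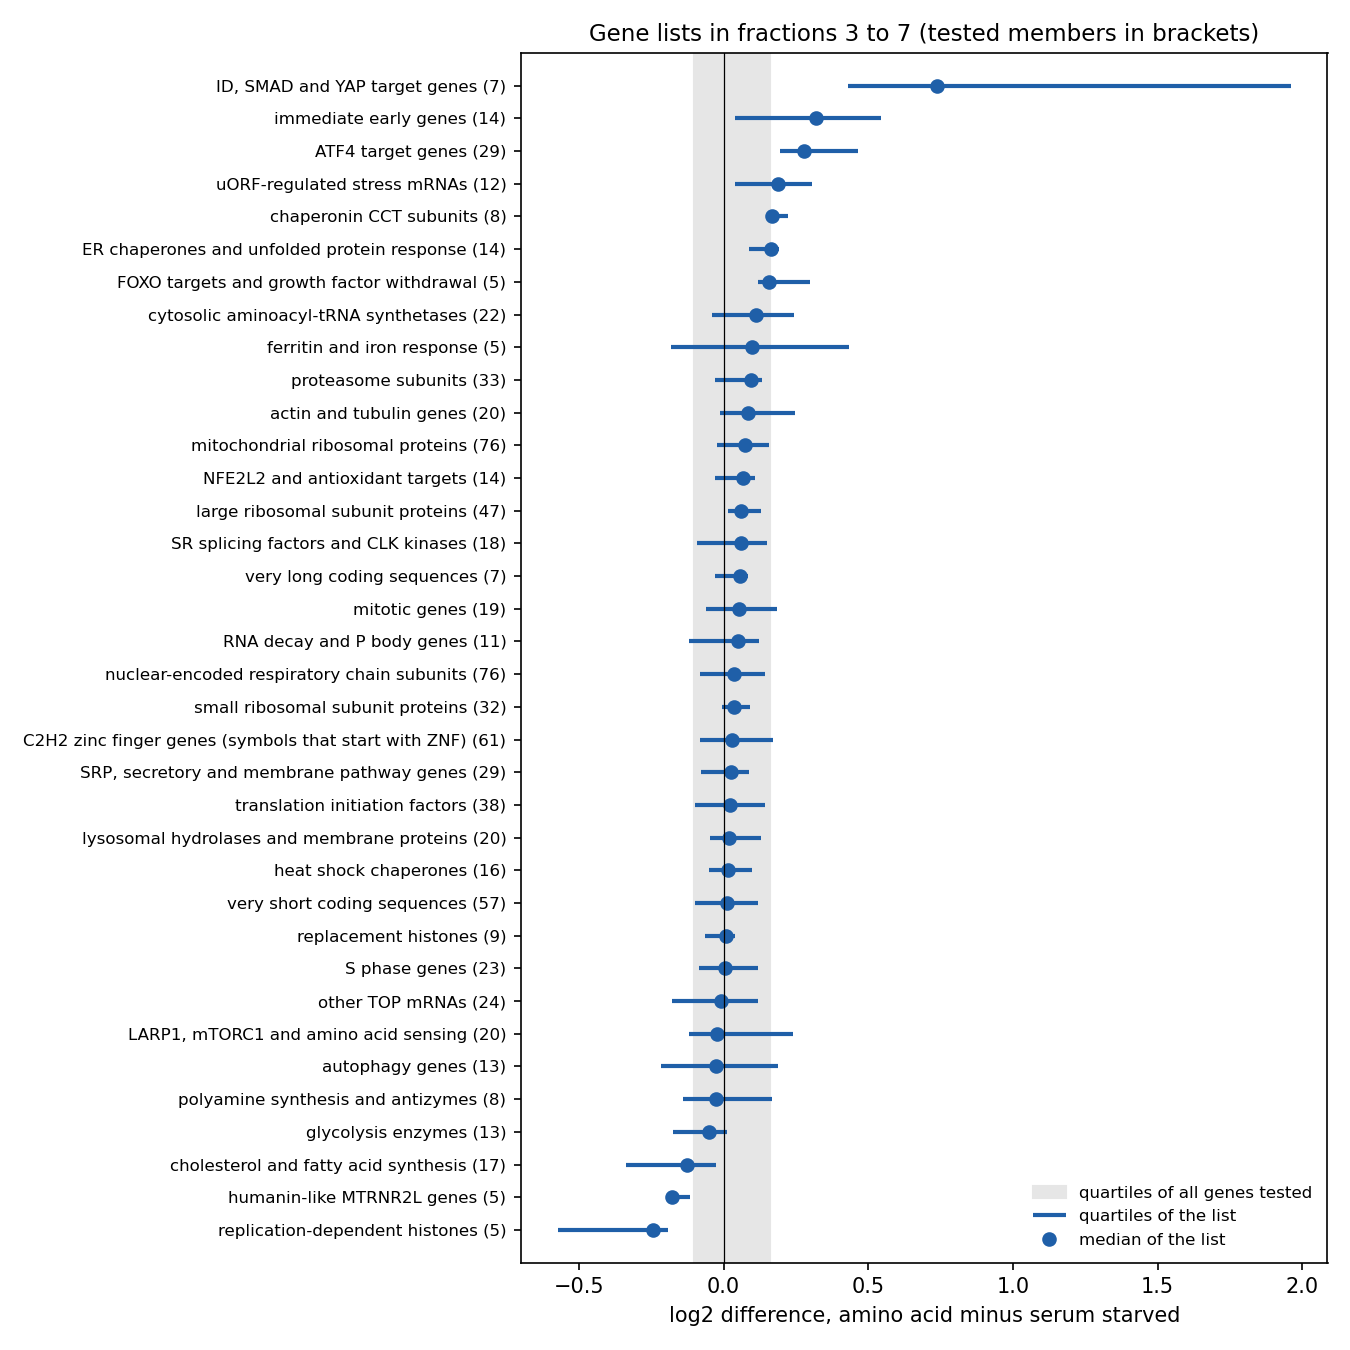
Points give the median and lines the quartiles of the log2 difference, amino acid minus serum starved, over the tested members of each gene list, with the number of members in brackets; the grey band spans the quartiles of all 4414 tested genes, -0.10 to 0.16. The ID, SMAD and YAP targets (0.74), immediate early genes (0.32) and ATF4 targets (0.28) have the highest medians, and replication-dependent histones (-0.24) the lowest. Lists can share members, as the immediate early and ATF4 target lists share ATF3.

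Lists tied to nutrient supply also lay close to 0. The genes of mTORC1, LARP1 and amino acid sensing had a median of -0.02 over 20 genes, with the mTORC1 activator RHEB highest at 0.53 and its inhibitor AKT1S1 lowest at -0.27. Autophagy genes had a median of -0.02 over 13, with BECN1 the lowest at -0.55 ± 0.40 and lower in 5 of 5 pairs. Cytosolic aminoacyl-tRNA synthetases had a median of 0.11 over 22. Cholesterol and fatty acid synthesis had a median of -0.13 over 17, of which 3 lay above 0, beside 2495 of all 4414 tested genes. The 8 subunits of the chaperonin CCT, which folds actin and tubulin, lay between 0.07 and 0.25. All were thus above 0, beside the same 2495 of 4414. Their median was 0.17, well within 1.5-fold. Glycolysis enzymes had a median of -0.05, and GAPDH differed by -0.19 ± 0.29.

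The differences were not even across the fractions. The median of all genes was 0.25 in fraction 3, 0.06 in fraction 4, 0.14 in fraction 5, -0.04 in fraction 6 and -0.28 in fraction 7. The share held by genes outside the TOP mRNAs moved with it, at 14.8% without amino acids against 12.3% without serum in fraction 3 and 22.6% against 27.5% in fraction 7. In fraction 3, 1225 genes were listed at 0 without amino acids and 1679 without serum. In fraction 7 these numbers were 27 and 39. The part of composition in the differences of single genes was not tested beyond the alternatives given at the end.

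The same genes were then followed through the rest of both gradients. ID1 differed by 2.33 in fractions 8 to 12, by 3.47 in fractions 13 to 17 and by 3.68 in fractions 18 to 22. ID3 differed by 1.53, 2.10 and 2.32, CYR61 by 1.76, 2.57 and 2.82, CHAC1 by 2.09, 3.23 and 3.22, and CEBPB by 0.62, 1.02 and 1.2 in the same blocks. All were higher without amino acids in every block. C10orf10 was likewise lower in every block, by -2.30, -2.30 and -2.07.

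Some genes that peaked in fraction 3 came near 0 or below it elsewhere. CCL5 gave 0.35, 0.50 and -0.04, COLEC12 -0.37, 0.23 and -0.21, and RAB3B -0.03, 0.28 and -0.46 in the later blocks. ARIH2OS, which also peaked there, stayed above 0 at 0.56, 0.35 and 0.41. Lower values elsewhere were not particular to such genes, since IFT52, which did not peak in fraction 3, gave 0.14, 0.06 and -0.41. CCDC122 gave -0.14, 0.31 and 0.36. BEST1 remained lower in each block but by less, at -1.41, -1.14 and -1.06. Its neighbour FTH1 gave -0.07, -0.66 and -1.50 in these later blocks, below 0 as BEST1 was and unlike in fractions 3 to 7. As a group, the 54 genes on the higher side had a median of 0.74 in fractions 3 to 7, by whose values they were chosen. Their medians were 0.23, 0.53 and 0.39 in the later blocks, beside -0.33, 0.12 and 0.02 over all tested genes. The 13 on the lower side had medians of -0.87, 0.01 and -0.14 there. The blocks come from the same 2 lysates and are not replicates of each other.

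The alignment of the gradients limits these values. Set against serum starved fractions 1 number lower or higher, the median of all genes moved to 0.64 or -0.58, and the medians of the ATF4 targets (1.18 or -0.45) and immediate early genes (1.38 or -0.68) turned with it. ID1, ID3, CYR61, CHAC1 and BEST1 met the matched 2-fold rule under both offsets and every other alternative that gave them a value. CEBPB missed it with a pseudocount of 5 and under 1 offset, at 0.78 at the lowest. CCL5 met it in 14 of 17 alternatives. It missed it with medians of the 5 values, with the deposited values and under 1 offset, where it fell to -0.06. ARIH2OS met it in 10 of 17 alternatives, C19orf73 in 10 of 13 and COLEC12 in 11 of 16. On the lower side C10orf10 met it in 15 of 16 and CCDC122 in 14 of 15, each missing it under 1 offset.

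**Figure D5:**
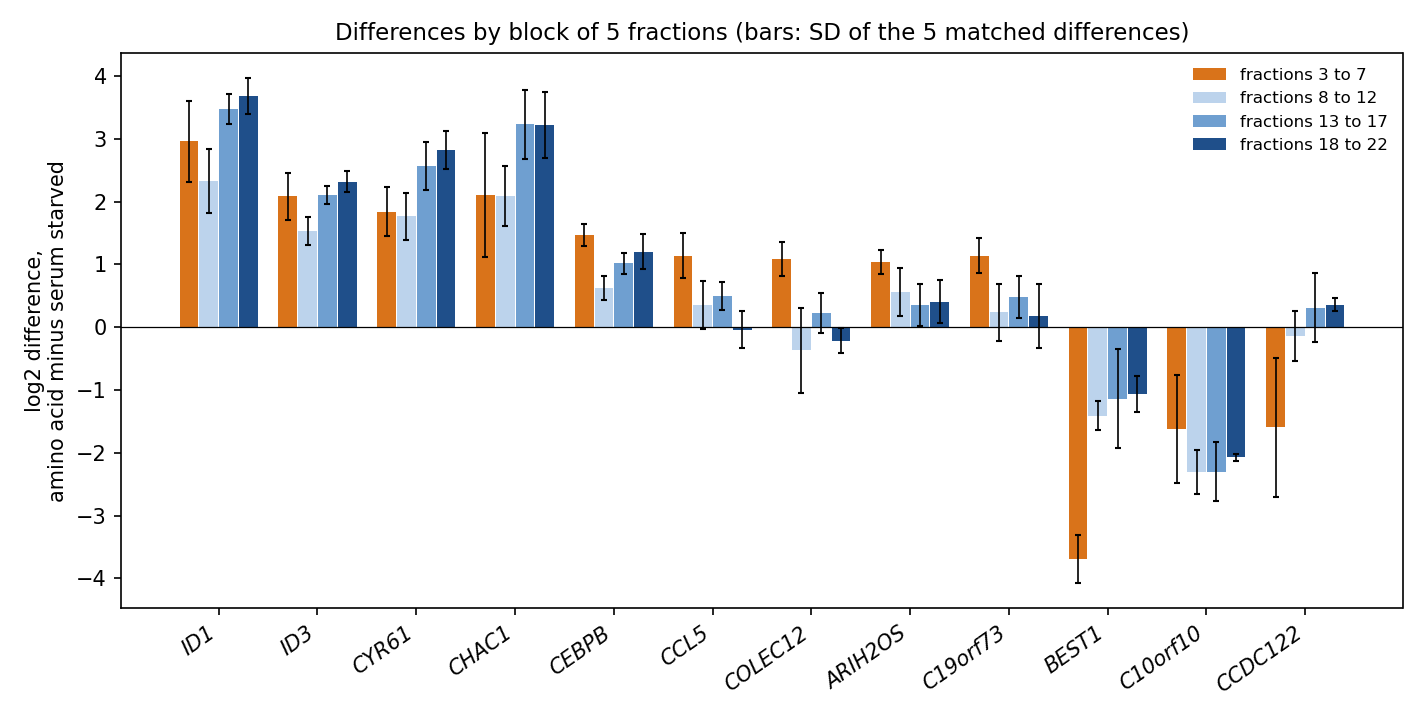
Bars give the log2 difference, amino acid minus serum starved, of 12 genes in each block of 5 fractions (colours), and error bars the SD of the 5 differences between fractions of equal number. ID1, ID3, CYR61, CHAC1 and CEBPB are above 0 and BEST1 and C10orf10 below 0 in all 4 blocks, whereas CCL5, COLEC12 and CCDC122 change sign.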

How the data were processed

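Poly(A) RNA of gradient fractions was sequenced. The submitters' processing notes name kallisto 0.44.0, sleuth 0.29.0 and hg38. The authors deposited signal as 1 value per gene symbol and fraction. It is named TPM, but columns do not sum to a common total, so an unstated scale per fraction remains. Depth is unknown, and no counting error was attached.

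The 29 ERCC rows and 1 luciferase row were removed (1.19% to 2.65% of the starved columns), and each column was rescaled to 1000000. Log2 values used a pseudocount of 1 and a mean signal of at least 5. Fractions of a gradient are not replicates, so no test was run, and the 2-fold rules describe size only. The calculation was run on simulated fractions, with changes larger than 2-fold put into genes with a mean signal of at least 20. Changes in weaker genes, smaller changes and an offset of fractions were not simulated, so the calls themselves were not checked by it. Python 3.11.15, numpy 2.4.6 and pandas 2.3.3 were used.

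Gene symbols were matched to the RefSeq table of GRCh38.p14, 10617 by symbol and 424 by 1 synonym, with 33 unmatched. Its coordinates are given.

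The fractions, gene lists and rules were chosen with earlier results of these data known. The naming rule took up to 12 of the largest differences in each direction past the no-overlap rule with a mean signal of at least 20 (ID3 and BEST1 qualified), the most abundant, highest and lowest member of each list, and a set of well-known genes. Other named genes were chosen after their values were seen. Of 39 lists, 3 had too few tested genes: mitochondrially encoded mRNAs, amino acid transporters, and snoRNA host genes. Bins of protein length, which had been planned, were not run. Alternatives covered the pseudocount, filter, scaling, centring, averaging, fraction offsets and leaving out each fraction.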

Additional observations from a re-analysis of the deposited data

How the results depend on the processing

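ID1, ID3, CYR61, CHAC1 and BEST1 kept their direction and the matched 2-fold rule under each alternative that gave them a value. Their differences ranged over 2.11 to 3.82, 1.79 to 2.53, 1.01 to 2.65, 1.11 to 2.82 and -4.10 to -2.73. The most consequential choice was the alignment of the gradients. With amino acid fractions 4 to 7 set against serum fractions 3 to 6, the median of all genes moved from 0.03 to 0.64, and with fractions 3 to 6 against 4 to 7 to -0.58. Under the first offset the no-overlap rule took 11 higher and 2 lower genes, the matched 2-fold rule 697 higher, and the matched 1.5-fold rule 1596 higher and 28 lower. Under the second the no-overlap rule took 1 higher and 5 lower, the matched 2-fold rule 17 higher and 527 lower, and the matched 1.5-fold rule 1567 lower. Medians under the first and second offset were -0.14 and 0.17 for large-subunit and -0.14 and 0.17 for small-subunit ribosomal proteins, 1.34 and -1.20 for other TOP mRNAs, 1.38 and -0.68 for immediate early genes, 1.78 and 0.012 for ID, SMAD and YAP targets, and 1.18 and -0.45 for ATF4 targets.

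Against 2, 9 and 54 genes on the higher side by the no-overlap, matched 2-fold and matched 1.5-fold rules, a pseudocount of 5 gave 1, 5 and 18, and a minimum mean signal of 20 gave 1, 3 and 13. Without the filter 93 passed the matched 1.5-fold rule, and with medians of the 5 values 17 passed the matched 2-fold rule. Spike-in scaling gave 0 by no overlap and 26 by matched 1.5-fold, trimmed mean scaling gave 4 by no overlap, and the deposited values and centring of each pair gave 0 by it. Size alone gave 11 higher and 3 lower genes. Against 3 genes on the lower side by matched 2-fold, a minimum of 20 gave 1. Against 13 by matched 1.5-fold, pseudocounts of 0.5 and 5 gave 20 and 7, no filter 29, a minimum of 20 gave 4, medians 20 and spike-in scaling 20. Leaving out 1 fraction gave 1 to 3 higher and 1 to 2 lower genes by no overlap, 8 to 12 and 2 to 4 by matched 2-fold, and 51 to 89 and 11 to 30 by matched 1.5-fold. The most higher genes, 89, came without fraction 7 and the most lower, 30, without fraction 3. Spike-in scaling put the ribosomal protein medians at -0.0526 (large) and -0.0792 (small). The immediate early median was 0.015 at a minimum of 20, and that of ID, SMAD and YAP targets was 0.36 with no filter and 1.35 with medians.

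The genes below, all past the matched 1.5-fold rule, turned sign under an offset. Values near 0 could also change sign without one, as the ribosomal protein medians did with spike-in scaling. With the first offset, BIRC5 became 0.15, ATAD3C -0.11, CCL5 -0.059, DGCR8 0.11, ELOA 0.049, FBXO48 -0.49, RAB3B -0.095 and SEMA3E -0.59. With the second, IER2 became -0.29, PPP1R15A -0.27, XBP1 -0.35, GADD45A -0.0015, ADM -0.075, ATF3 -0.085, CEBPG -0.23, FJX1 -0.25, HOXB2 -0.042, HOXB9 -0.44, IFT52 -0.42, MCL1 -0.40, RPRM -0.17 and ZNF256 -0.73. An offset compares unlike positions by construction, and whether the fractions of both gradients were cut at the same points was not tested. Over all alternatives, 2476 single-gene values stayed within the spread of their fractions and 294 moved further. The 22 counted as turned are those listed above. Read depths are unknown, and with them the counting error of weak genes such as CHAC1.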

Other observations

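Homeobox genes, which encode patterning transcription factors, were looked at together after several of them had been seen on the higher side. Of 15 tested, 14 lay above 0, beside 2495 of all 4414 tested genes. Their median was 0.35, beside 0.03 over all genes, and they ranged from -0.04 to 0.90. DLX2, MSX2, HOXB2, HOXB6 and HOXB9 met the matched 1.5-fold rule, beside 54 of all 4414 genes, and none met it on the lower side. MSX2, HOXB2 and HOXB6 had means of 4.02, 4.64 and 4.44 without serum and passed the filter of 5 through their high side, which favours higher calls, so the count is a description. DLX2 read 2.50, 2.59, 7.27, 14.1 and 21.3 in fractions 3 to 7 without amino acids and 0.387, 0.738, 3.22, 8.13 and 15.8 without serum. HOXB2 differed by 0.65 ± 0.19 in these fractions and by -0.0018, 0.85 and 0.91 in fractions 8 to 12, 13 to 17 and 18 to 22. The values of HOXB2 and HOXB9 turned sign under an offset of 1 fraction.

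ESCO2, a cohesin acetyltransferase, and KIAA1522 differed by over 2-fold on average but not in every pair. ESCO2 read 227 and 42.5 in fractions 3 and 4 without amino acids and 49.1 and 6.44 without serum, while fraction 6 read 7.97 and 8.22. KIAA1522 was lower without amino acids in fraction 4, at 6.24 against 13.9, and higher in the other 4 fractions. Both were chosen after their values were seen.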
